A study of Rattus norvegicus with 3 samples.

Results

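Gene expression was compared directly between cultured neonatal rat ventricular myocytes kept for 48 h with 1 µM PAMH and the same kind of cells kept for 48 h with 20 µM phenylephrine. The comparison took 2 of the 3 arrays of the series, chosen by their titles. All 15866 non-control probe sets of the 15923 on the array were members, and none was chosen by its value. The third array, from myocytes cultured for 48 h with no stimulus, served to place the levels. The cells were primary ventricular myocytes from newborn rats, and total RNA was measured. Each condition had 1 array, so no ratio below has an error or a replicate check, and no p-value can be given. The concentrations differed, so the values are set side by side and do not compare the compounds at matched dose. The labels do not say whether the arrays came from 1 preparation of cells or from several.

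Phenylephrine activates α1-adrenergic receptors, which couple through Gq to phospholipase C, calcium release and protein kinase C, and it makes cultured cardiac myocytes enlarge. PAMH, the pyridine activator of myocyte hypertrophy, is a small molecule that came from a search for activators of the calcineurin pathway. It is reported to act through the serotonin receptor encoded by Htr2a, which also couples through Gq. Hypertrophic growth in such cultures is usually read from natriuretic peptides, skeletal actin and β-myosin heavy chain, and calcineurin activity from Rcan1, a feedback regulator that it induces. The comparison asked where the profiles of the hypertrophic stimuli differed.

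The deposited values are signal intensities. They were multiplied by 1 factor per array (0.937 for unstimulated, 1.02 for phenylephrine and 1.04 for PAMH) so that the arrays had equal medians. A probe set counted as measured at or above a floor of 76.0, which is percentile 40 of all scaled values. The ratio of 3′ to 5′ actin control signal, a sign of RNA integrity, was 1.72 unstimulated, 1.44 with phenylephrine and 1.54 with PAMH. For the GAPDH control it was 1.04, 1.07 and 1.01 in the same order. Of 10411 genes with their own symbol, 6593 were measured on both arrays, 3138 were below the floor on both and 680 on 1 of them. A gene with several probe sets is given by the brightest. Log2 ratios are PAMH over phenylephrine throughout, so negative values mean lower with PAMH.

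The profiles were close. The median log2 ratio over the 6593 genes was 0.04, the SD 0.29, and 95.4% of genes differed by less than 1.5-fold. At least 2-fold lower with PAMH were 24 genes (0.364% of those measured), and at least 2-fold higher 13 (0.197%). At 1.5-fold these counts were 176 lower (2.67%) and 127 higher (1.93%). Probe sets for the same gene gave log2 ratios that differed among themselves with an SD of 0.23 over 866 genes, which is a technical yardstick without any variation between cultures. Of 6 genes past 2-fold with more than 1 measured probe set, 5 had all of them on the same side of 0. The exception was the tau gene Mapt, whose second probe set was close to 0, as was that of Synpo. The genes past 2-fold lay at low and middle signal, and none had a geometric mean signal on the treated arrays of 704 or more, the range of the natriuretic peptides and most contractile proteins.

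**Figure D1:**
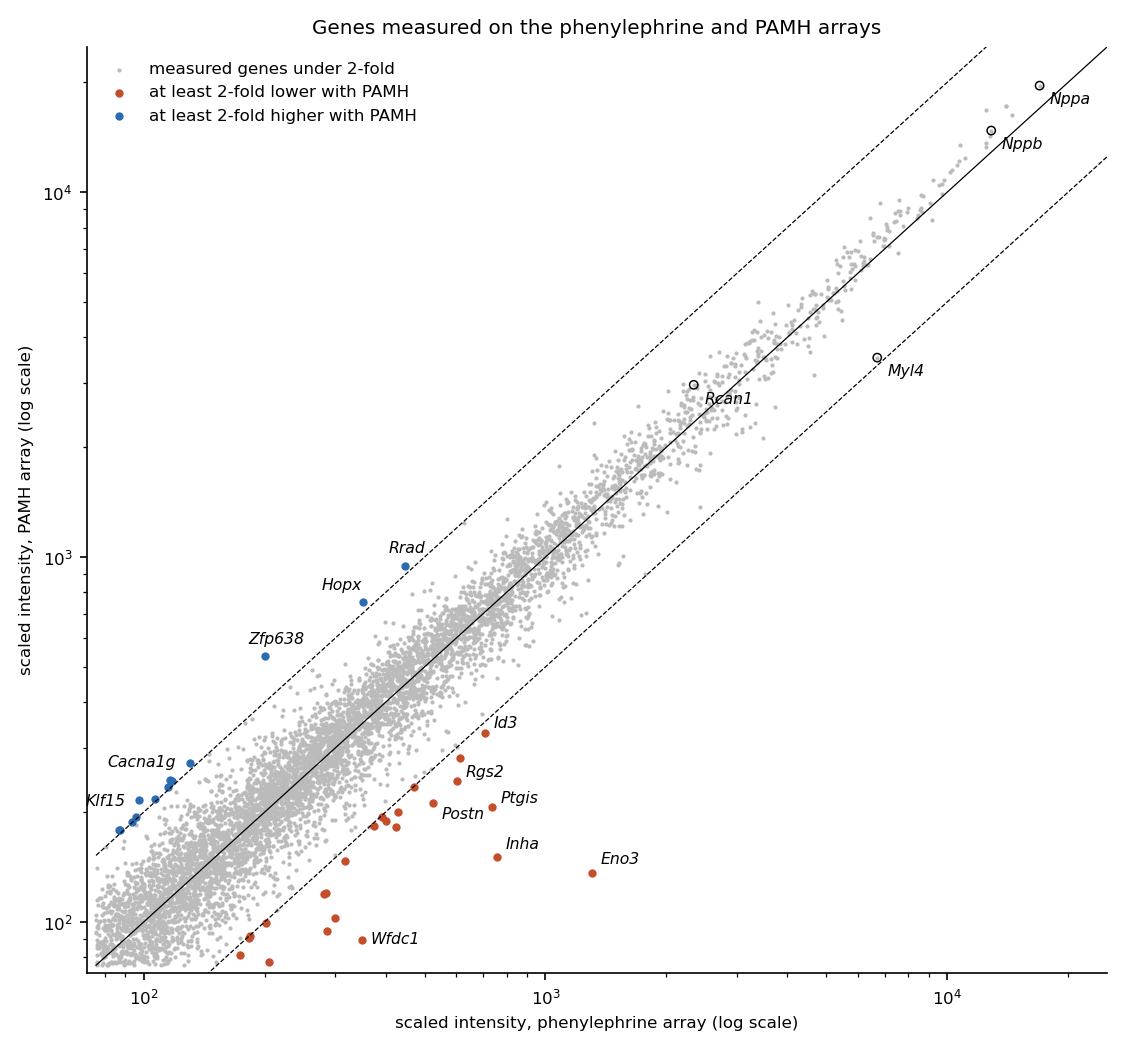
Scaled intensity on the PAMH array against that on the phenylephrine array for the 6593 measured genes, both axes on a log scale, 1 point per gene. The solid line marks equal signal and the dashed lines 2-fold; 24 genes lie on or below the lower dashed line, led by Eno3 and Inha, and 13 on or above the upper one, while Nppa, Nppb and Rcan1 lie close to the solid line.

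The unstimulated array was used to place the genes past 2-fold. Of the 24 lower with PAMH, 16 were at least 1.5-fold above unstimulated with phenylephrine and within 1.5-fold of unstimulated with PAMH, 4 departed from unstimulated by 1.5-fold with PAMH alone (Cdh13, Pde4b, Postn and Slc7a3), and 4 with either compound. Unstimulated signals under the floor were set to the floor for this count. The placement of Cdh13 is by its brightest probe set. Its other probe sets had 332 and 232 unstimulated and 235 and 218 with PAMH. Synpo, among the 16, is also placed by its brightest probe set, and its second had nearly equal signals with the compounds. Of the 13 genes higher with PAMH, 7 were at least 1.5-fold below unstimulated with phenylephrine and within 1.5-fold of it with PAMH, among them Cacna1g, Klf15, Mxi1 and Sorl1. The remaining members of that group were Qprt, Scrn3 and Snn. Another 4, Hopx, Mapt, Mras and Rrad, were at least 1.5-fold above unstimulated with PAMH alone. For Mapt this did not hold by the second measured probe set, which had 42.9, under the floor, unstimulated, 161 with phenylephrine and 160 with PAMH. Past 1.5-fold the placement was more mixed. Of 176 lower genes, 65 departed from unstimulated by 1.5-fold with phenylephrine alone, 37 with PAMH alone, 24 with either and 50 with neither. Of 127 higher genes these counts were 35, 31, 9 and 52. They describe where the unstimulated array lay and rest on that single array.

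The gene furthest apart was Eno3, the muscle isoform of the glycolytic enzyme enolase. Its intensity was 269.6 unstimulated, 1305 with phenylephrine and 137 with PAMH. The unstimulated level lay between the treated ones, and the signal with PAMH was 9.56-fold lower than with phenylephrine (log2 ratio -3.26, between -3.29 and -2.86 under the 10 processing alternatives that gave a value). Inha, which encodes the α subunit of the secreted hormone inhibin, had 91.3 unstimulated, 758 with phenylephrine and 150.3 with PAMH, a 5.04-fold difference. Here both treated signals were above the unstimulated one, which was close to the floor.

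Wfdc1, a secreted protein with a WAP domain, had 349.5 with phenylephrine and 89.1 with PAMH, 3.92-fold lower, and was below the floor unstimulated (66.0). Ptgis, which encodes prostacyclin synthase, had 165 unstimulated, 737 with phenylephrine and 207 with PAMH, 3.57-fold lower. The PAMH signals of this pair were within 1.5-fold of the unstimulated array or the floor. Fibin, a secreted protein gene, (286 with phenylephrine, 94.5 with PAMH) was 3.03-fold lower. Tnfrsf11b, which encodes the decoy receptor osteoprotegerin, (299.7 against 102) was 2.93-fold lower. Their unstimulated signals, 141 and 136, lay between the treated ones but nearer to PAMH.

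Further members of this group had smaller ratios. Nudt18 of the Nudix hydrolase family had 127 unstimulated, 285 with phenylephrine and 119.8 with PAMH (2.38-fold lower). Ripk3, a kinase of necroptosis, had 154, 281 and 119 in the same order (2.35-fold lower). Cspg4, the proteoglycan NG2, had 429 with phenylephrine and 200.1 with PAMH (2.14-fold lower), and 70.7, under the floor, unstimulated. Slc7a3, a cationic amino acid transporter, had 223 unstimulated, 317 with phenylephrine and 146 with PAMH (2.16-fold lower), the last being below the unstimulated signal. Opposite placement, above unstimulated with phenylephrine and below it with PAMH by at least 1.5-fold each, held for 2 of the 24 genes, Eno3 and Serpinf1.

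The rest of the 24 lay between 2.01-fold and 2.63-fold lower. Serpinf1, the secreted anti-angiogenic factor PEDF, had 118 unstimulated, 205 with phenylephrine and 77.8 with PAMH (2.63-fold lower), the last being just above the floor. Penk, which encodes the opioid precursor proenkephalin, had 74.0, 174 and 81.3 (2.14-fold lower), and Il1rl1, the interleukin 33 receptor ST2, 72.8, 183 and 90.1 (2.03-fold lower). Gprc5a, an orphan G protein-coupled receptor, had 156, 374 and 183 (2.05-fold lower), and the tyrosine kinase gene Tec 137, 391 and 194 (2.01-fold lower). For these 4 the signal with PAMH was within 1.5-fold of the unstimulated one or of the floor, and phenylephrine alone stood out. Nap1l5 (2.03-fold) and Synpo, the actin-binding protein synaptopodin (2.01-fold), had the same pattern. For Synpo this did not hold by the second measured probe set. That probe set had 67.4, under the floor, unstimulated, and 101.5 with either compound.

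For the 680 genes below the floor on 1 array the ratio has only a bound. With values below the floor set to it, 14 genes were at least 2-fold higher and 33 lower, against 13 and 24 without such genes. Bounds were named where the other array was above 295, percentile 75 of scaled values, and Myl1, the fast skeletal myosin light chain, was the 1 gene past 2-fold that met this. It had 305 with phenylephrine, was under the floor with PAMH (66.4) and unstimulated (33.9), and was at least 4.01-fold lower with PAMH.

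**Figure D2:**
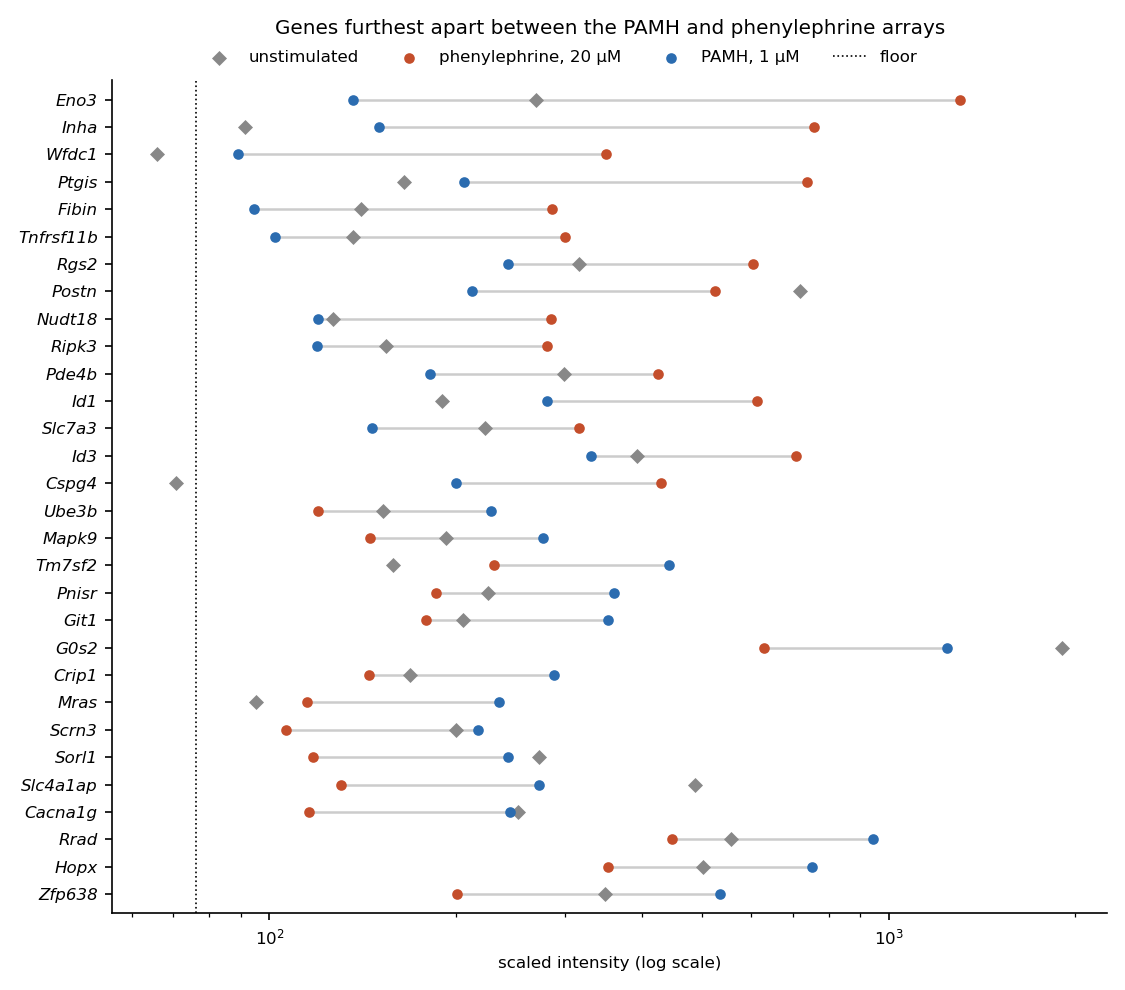
Scaled intensity, on a log scale, on the unstimulated (diamonds), phenylephrine and PAMH (circles) arrays for the 15 lowest and 15 highest ratios among the 4852 measured genes with a mean signal above percentile 60, 1 array per condition. Eno3 at the top spans 137 with PAMH to 1305 with phenylephrine, and Zfp638 at the bottom 201 with phenylephrine to 535 with PAMH.

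Among genes higher with PAMH, Zfp638, a nuclear zinc-finger RNA-binding protein, had 349 unstimulated, 201 with phenylephrine and 535 with PAMH, 2.66-fold higher than with phenylephrine. The treated signals lay on opposite sides of the unstimulated one. Hopx, a homeodomain protein without DNA binding that modulates serum response factor in the heart, had 501, 352 and 752 in the same order and was 2.14-fold higher. Rrad, a small GTPase that restrains L-type calcium channels, had 557, 446 and 945 (2.12-fold higher). For all 3 genes the unstimulated array lay between the others. Under the 11 processing alternatives the log2 ratio stayed between 1.22 and 1.41 for Zfp638. Rrad stayed past 2-fold under each, and Hopx fell just under it, to 0.997, with an offset of 50 alone.

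Cacna1g, which encodes the T-type calcium channel Cav3.1, had 252 unstimulated, 116 with phenylephrine and 245 with PAMH (2.11-fold higher with PAMH). Klf15, a transcription factor that represses hypertrophic genes, had 206, 95.5 and 194 (2.04-fold higher). In both, the signal with PAMH was close to unstimulated and that with phenylephrine was low. G0s2, an inhibitor of the lipase Pnpla2, had 1905 unstimulated, 628 with phenylephrine and 1242 with PAMH and, at 1.98-fold, lay just under the threshold. Slc4a1ap, a nuclear protein gene, had 488, 130.5 and 273 (2.09-fold higher). All 4 of these had their highest signal unstimulated. Mras, a Ras-family GTPase, had its lowest there, just above the floor, with 115 with phenylephrine and 234 with PAMH (2.04-fold higher).

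The largest ratio after that of Zfp638 belonged to a dim gene, Mxi1, an antagonist of Myc, with 177 unstimulated, 97.0 with phenylephrine and 216 with PAMH (2.22-fold higher). Its other probe set went the opposite way, with 81.7, near the floor, with phenylephrine and 26.7, under it, with PAMH. Qprt of NAD synthesis (2.05-fold), Snn, which encodes stannin (2.06-fold), and Mapt (2.01-fold) had signals of 87.1, 86.7 and 93.3 with phenylephrine, close to the floor. Other genes among the 15 highest with a mean signal above percentile 60 were Sorl1, a sorting receptor (2.06-fold, by the only measured one of its 6 probe sets), Scrn3 (2.04-fold), Crip1, a LIM-domain protein (1.99-fold), Git1, a scaffold of focal adhesions (1.96-fold), Pnisr (1.94-fold), Tm7sf2 of cholesterol synthesis (1.91-fold), Mapk9, which encodes the kinase JNK2 (1.90-fold), and the ubiquitin ligase gene Ube3b (1.90-fold). Their phenylephrine signals lay between 106 for Scrn3 and 231 for Tm7sf2, so all of them had low signals. With an offset of 50 added to every signal, which damps ratios of dim genes, 2 of the 13 higher genes (Rrad and Zfp638) and 10 of the 24 lower ones (Eno3, Inha, Wfdc1, Ptgis, Fibin, Tnfrsf11b, Rgs2, Postn, Pde4b and Id1) remained past 2-fold.

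Receptors for both ligands were dim. Of 26 adrenergic and serotonin receptor, monoamine transporter and monoamine-degrading enzyme genes on the array, 5 were measured on both treated arrays and 15 were below the floor on both; the others were below it on 1. Adra1b, the α1B-adrenergic receptor, had 395 unstimulated, 121 with phenylephrine and 166 with PAMH, a log2 ratio of 0.45. It was lower than unstimulated on each treated array and lowest with phenylephrine. Adra1a, the α1A receptor, was under the floor on all arrays, at 8.43, 53.7 and 35.8, and Htr2b likewise at 26.9, 17.6 and 37.4.

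Htr2a, the gene of the serotonin receptor through which PAMH is reported to act, had 97.2 unstimulated, 149 with phenylephrine and 120.0 with PAMH, a log2 ratio of -0.32. A second measured probe set gave 0.41, so its direction was not settled. Maoa, the mitochondrial enzyme that degrades serotonin and noradrenaline, had 509.7, 719 and 522, and its log2 ratio was -0.46, with the PAMH level near the unstimulated one. Htr3a (-0.43) and Htr5a (-0.09) were near the floor, at 97.3, 103 and 76.6 for Htr3a. Htr1b was above the floor with PAMH (139) and unstimulated (97.1) and below it with phenylephrine (55.4). No gene of this list differed by 1.5-fold among those measured.

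The gene lists of this report were drawn up with earlier results of these data known. Their shares and medians, here and below, therefore describe the lists and are not a test. Some genes that act in or feed back on Gq and MAP kinase signalling were lower with PAMH. Of 20 measured members of 36 listed, 5 were at least 1.5-fold lower (against 2.67% of all measured genes) and none was higher by that much. The list's median log2 ratio was -0.20, against 0.04 for all genes, and 14 of the 20 members were below 0, against 43.3% of all measured genes. The list median ranged from -0.23 to -0.08 under the alternatives. Rgs2, which shortens Gq signals, had 316 unstimulated, 603 with phenylephrine and 243 with PAMH (2.48-fold lower). Its other probe set had 375 and 136 with the compounds, a log2 ratio of -1.47. With either probe set the signal was below unstimulated with PAMH and above it with phenylephrine.

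Spry2, an inhibitor of receptor tyrosine kinase signalling, had 437 unstimulated, 697 with phenylephrine and 372 with PAMH (1.87-fold lower). Hbegf, a ligand of the epidermal growth factor receptor shed on Gq activation, had 142, 335 and 182 (1.84-fold lower). The PAMH signals of this pair lay within 1.5-fold of unstimulated. Plcb3, a phospholipase C of the Gq pathway, was 1.51-fold lower, from 136 to 90.0. Plaur, the urokinase receptor, was 1.51-fold lower, from 124 to 82.1. Both of those were near the floor with PAMH. The protein kinase C genes lay on the other side, with log2 ratios of 0.44 for Prkcd, 0.24 for Prkca and 0.22 for Prkce, under 1.5-fold.

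Among 24 measured genes of cyclic AMP and protein kinase A signalling the median was 0.03 and the mean -0.02. By 1.5-fold, 1 member was lower and 1 higher (4.17% each, against 2.67% and 1.93% of all measured genes). The lower one was Pde4b, a phosphodiesterase that degrades cyclic AMP. It had 299 unstimulated, 424 with phenylephrine and 182 with PAMH (2.33-fold lower), and -1.44 by its second probe set. It was below unstimulated with PAMH and above it with phenylephrine. The higher one was Akap6, which anchors protein kinase A at the nuclear envelope, with 154 and 235 (1.53-fold). Of 16 measured immediate early and Krüppel-like factors, Klf15 was higher and Klf6 was 1.62-fold lower (387 with phenylephrine, 239 with PAMH), but a second Klf6 probe set gave -0.16. The nuclear receptor Nr4a1 (-0.55) and Atf3 (-0.44) were lower by less than 1.5-fold.

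The Id genes encode helix-loop-helix proteins that lack a DNA-binding region and hold back differentiation factors, and they are classic targets of bone morphogenetic protein signalling. Their promoters, from 250 bases upstream to the start site in RefSeq's GRCr8 assembly, are printed here because these genes moved together. Capitals mark matches, on either strand, to the GC box GGGCGG, the CCAAT box CCAAT and the TATA box TATAAA.
Id1, chr3:161671314-161671563, plus strand: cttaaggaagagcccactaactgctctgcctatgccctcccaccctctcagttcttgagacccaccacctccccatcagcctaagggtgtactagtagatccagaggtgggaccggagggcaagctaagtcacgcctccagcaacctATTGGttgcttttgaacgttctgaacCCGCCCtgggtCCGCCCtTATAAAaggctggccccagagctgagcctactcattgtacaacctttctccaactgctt
Id2, chr6:47470996-47471245, minus strand: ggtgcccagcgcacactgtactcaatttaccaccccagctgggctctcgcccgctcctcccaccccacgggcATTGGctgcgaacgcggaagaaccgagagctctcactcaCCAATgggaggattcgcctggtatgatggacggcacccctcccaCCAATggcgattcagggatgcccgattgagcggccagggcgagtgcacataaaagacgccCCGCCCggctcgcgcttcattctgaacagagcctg
Id3, chr5:153656041-153656290, plus strand: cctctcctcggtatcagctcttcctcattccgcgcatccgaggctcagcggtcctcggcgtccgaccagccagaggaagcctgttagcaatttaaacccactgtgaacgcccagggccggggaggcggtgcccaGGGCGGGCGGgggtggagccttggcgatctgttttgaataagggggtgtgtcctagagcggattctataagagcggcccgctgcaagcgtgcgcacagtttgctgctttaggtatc
A GC box is present in all 3 windows, and in 62.5% of 5252 promoters of measured genes. The CCAAT box is in Id1 and Id2 and in 36.5% of all, and the TATA box in Id1 alone of these and in 6.44% of all. The cyclic AMP response element TGACGTCA, its partial site TGACG, the AP-1 site TGANTCA and the E-box CACGTG were also searched and have no match in these windows; the partial site lies inside the full element.

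Id1 had 190.0 unstimulated, 614 with phenylephrine and 281 with PAMH (2.19-fold lower). Id3 had 392, 708 and 330.2 (2.14-fold lower). Id2 had 608, 519 and 263 (1.97-fold lower, just under the threshold). All 3 were lower with PAMH than with phenylephrine, although the unstimulated level was lowest for Id1, between the treated ones for Id3 and highest for Id2. Of 12 measured genes of the Id and BMP list, only these 3 were at least 1.5-fold lower (25%, against 2.67% of all measured genes). Below 0 on the log2 scale were 8 of the 12 and above it 4. The list median was -0.15, between -0.22 and -0.06 under the alternatives. The receptor gene Bmpr1a was the highest member, with 527 and 739 (log2 ratio 0.49), and the receptor Bmpr2 and mediator Smad1 had -0.23 and -0.24. Smad6 and Hes1 had 0.12 and 0.04.

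Across all genes past 2-fold with a single listed promoter, 8 of 13 lower and 3 of 9 higher ones have a GC box, and 4 and 4 the partial element TGACG, found in 31.2% of all. The TATA box is in 4 of the 13 lower (Id1, Il1rl1, Nap1l5 and Postn) and in none of the 9 higher genes. The E-box CACGTG is in 4 of the 9 higher (Hopx, Klf15, Snn and Sorl1) and none of the lower, against 8.82% of all promoters. The Hopx window, with its E-box in capitals, is shown as the gene of this group with the brightest signal.
Hopx, chr14:31429163-31429412, plus strand: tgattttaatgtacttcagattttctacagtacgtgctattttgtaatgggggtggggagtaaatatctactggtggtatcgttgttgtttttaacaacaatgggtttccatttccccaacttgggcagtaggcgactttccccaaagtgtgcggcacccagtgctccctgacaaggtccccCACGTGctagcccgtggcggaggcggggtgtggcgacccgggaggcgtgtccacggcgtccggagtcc
A match describes letters in the window and is not evidence of binding.

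The growth factors and secreted regulators that differed by at least 1.5-fold were lower with PAMH. Of 33 measured, 7 were at least 1.5-fold lower (21.2%, against 2.67% of all measured genes) and none higher, with a median of -0.20. Below 0 on the log2 scale were 21 members and above it 12. The highest was the chemokine Cxcl12, just under the cut at 1.49-fold higher, with 81.1 with phenylephrine, near the floor, and 120.6 with PAMH. Besides Inha, the activin β-subunit gene Inhba had 78.0 unstimulated, 217 with phenylephrine and 119.5 with PAMH (1.81-fold lower). Edn1, which encodes the vasoconstrictor endothelin 1, had 99.2, 169 and 103 (1.65-fold lower). Gdf15, a stress-induced cytokine, had 97.2, 317 and 197 (1.61-fold lower). Inhba and Gdf15 were above unstimulated with either compound, and Edn1 was at the unstimulated level with PAMH.

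The chemokine Ccl2 was 1.69-fold lower (402 to 237), the lymphangiogenic factor Vegfc 1.55-fold (136 to 87.8) and the morphogen Bmp4 1.54-fold (151 to 97.7). Members of the list that were brighter with phenylephrine than Inha (758) differed by less than 1.5-fold. Tnfrsf12a, the receptor of the cytokine TWEAK, had 2366 and 1748 (log2 ratio -0.44), Fstl1 1913 and 1663 (-0.20) and Igfbp7 2043 and 2370.2 (0.21). Ccn2, the connective tissue growth factor, had 6971 and 7099 (log2 ratio 0.03), and Tgfb2 had 805 and 817 (0.02). Of 52 genes of this list on the array, 19 were not measured on both arrays. With every gene on the array kept and values below the floor set to it, the list's median was 0.00.

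The markers of hypertrophy differed little between the stimuli. Nppa, atrial natriuretic peptide, had 7516 unstimulated, 16987 with phenylephrine and 19589 with PAMH, a log2 ratio of 0.21. Nppb, B-type natriuretic peptide, had 3227, 12872 and 14755 (0.20), and the skeletal α-actin Acta1 4755, 10153 and 11328 (0.16). Each treated signal was above the unstimulated one, and the differences between treated arrays were under the spread between probe sets of a gene. After quantile normalization the ratios were 0.00 for Nppa, -0.08 for Nppb and 0.00 for Acta1, so no direction was settled. Rcan1 had 855 unstimulated, 2339 with phenylephrine and 2965 with PAMH, a log2 ratio of 0.34 that stayed between 0.27 and 0.34 under the 11 alternatives. Rcan2, of the same family, had 834 and 1059 (0.34, and 0.50 by a second probe set). The 13 measured calcineurin subunits, regulators, NFAT and MEF2 genes had a median of 0.05, none past 1.5-fold.

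The fetal and stress-responsive list had 20 measured members with a median of 0.14 and a mean at 0 to 2 decimals; the median became -0.01 after quantile normalization. Its 2 members at least 1.5-fold lower (10%, against 2.67% of all measured genes) were Gdf15 and Myl4, and none was higher. Myl4, a myosin light chain of the atria and the fetal ventricle, had 1080.3 unstimulated, 6697 with phenylephrine and 3520.0 with PAMH (1.90-fold lower), so it was above unstimulated with either compound. The sarcomere and Z-disc list had a median of 0.16 over 37 genes, or -0.03 after quantile normalization. By 1.5-fold, 3 members were lower (8.11%, against 2.67% of all measured genes) and 1 higher (2.70%, against 1.93%). Neither list had a settled direction.

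The lower sarcomere genes besides Myl4 were Pdlim7 of the Z-disc, with 499.6 unstimulated, 2425 with phenylephrine and 1371 with PAMH (1.77-fold lower, and a log2 ratio of -0.43 by a second probe set), and the titin cap gene Tcap, with 385, 1515 and 952 (1.59-fold lower). Both were well above unstimulated on each treated array. Myh3, the embryonic myosin heavy chain, was the higher one, with 523 and 846 (1.62-fold) and a signal under the floor unstimulated (26.6). Mybpc3, cardiac myosin-binding protein C, had 3284, 3373 and 5014 (log2 ratio 0.57), just under 1.5-fold. The β-myosin heavy chain Myh7 had 13984 and 17268 (0.30, 0.07 after quantile normalization), and the α chain Myh6 10778 and 13489 (0.32, 0.10).

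Of 21 measured genes of adult myocyte function and calcium handling, Casq1, calsequestrin of skeletal muscle and a store of calcium in the sarcoplasmic reticulum, was the 1 past 1.5-fold. It had 255 unstimulated, 3478 with phenylephrine and 2118 with PAMH (1.64-fold lower), far above unstimulated with each. Its cardiac counterpart Casq2 had 5773 and 6843 (log2 ratio 0.25). The calcium pump gene Atp2a2 had 0.21 by its brightest probe set and -0.03 and -0.25 by others. Slc8a1, the sodium-calcium exchanger, had 3414 and 4443 (0.38, and 0.58 by a second probe set). Among 22 ion channel genes, Cacna1g was higher and the ATP-gated channel gene P2rx5 1.71-fold lower, with 191 and 112 and a second probe set at -0.93.

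Of 11 measured cardiac transcription factors, Hopx was the 1 past 1.5-fold and the median was 0.13. Gata4 (692 and 759, log2 ratio 0.13) and Nkx2-5 (728 and 797, 0.13), which set up the cardiac program, were nearly equal on the treated arrays, and Mef2c had -0.18 and -0.46 by its measured probe sets.

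Most matrix genes had lower signals with PAMH than with phenylephrine. Of 61 extracellular matrix and fibroblast genes listed, 44 were measured. Their median log2 ratio was -0.30, between -0.32 and -0.23 under the alternatives. Below 0 were 38 of the 44, against 43.3% of all measured genes. At least 1.5-fold lower were 7 (15.9%, against 2.67% of all), and none was higher by that much.

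Postn, which encodes the matricellular protein periostin, had 721 unstimulated, 525 with phenylephrine and 212 with PAMH (2.47-fold lower). Lox, the enzyme that cross-links collagen and elastin, had 196, 471 and 234 (2.01-fold lower, and -1.38 on the log2 scale by a second probe set). Timp1, an inhibitor of matrix metalloproteinases, had 401, 852 and 507 (1.68-fold lower). The order of the arrays differed among them: Postn was highest unstimulated, while Lox and Timp1 were highest with phenylephrine. Col3a1, a fibrillar collagen, had 2773, 2011 and 1327 (1.52-fold lower), the order of Postn. The remaining members past 1.5-fold were Fbln2 (1.69-fold), Col12a1 (1.59-fold) and Vcan, which encodes versican (1.56-fold).

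Not all matrix genes were lower. The type I collagen chains had log2 ratios of -0.36 for Col1a1 and -0.01 for Col1a2. Sparc, which binds collagen, had 2165 and 2306 (0.09), and the collagen chaperone Serpinh1 3025 and 3053 (0.01). The elastin cross-linking enzyme Loxl1 was highest of the list, with 205 and 272 (0.41), opposite in direction to Lox.

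Other markers of cells that such cultures can hold moved as follows. Smooth muscle genes, some of which are also in the sarcomere list, had a median of -0.27 over 15 members. At least 1.5-fold lower were 2 (13.3%, against 2.67% of all measured genes): smooth muscle myosin Myh11 (282 to 178, 1.58-fold) and smooth muscle γ-actin Actg2 (498 to 328, 1.52-fold). The smooth muscle α-actin Acta2 lay on the other side, with 1834 and 2151 (log2 ratio 0.23). The 15 cardiomyocyte markers were all above the floor on every array and had a median of 0.17 (down to 0.07 after cyclic loess normalization). Of these, 14 were above 0 and 1 below, against 43.3% below 0 of all measured genes, and none was past 1.5-fold.

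Summed over the markers on the array, the signal was 110056 with phenylephrine and 129609 with PAMH for cardiomyocytes (log2 ratio 0.24). For matrix and fibroblast genes, of which 44 of 57 were above the floor on all arrays, it was 41082 and 34055 (-0.27), and for smooth muscle genes 35922 and 32892 (-0.13). The smooth muscle list shares Tpm1, Tpm2, Des and Synpo2 with the sarcomere list. Tpm1 by itself had 10300.6 with phenylephrine and 11474.5 with PAMH, so this sum does not read smooth muscle cells alone. Cardiomyocyte and matrix sums thus differed in opposite directions. In RNA from a whole culture, fewer cells of a type and less RNA per cell cannot be told apart, and the part of cell makeup in the gene ratios was not tested.

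Other cell types had few detected markers. Of 13 endothelial markers on the array, 2 were above the floor on all arrays, and the defining genes Pecam1, Kdr, Flt1 and Vwf were below it on all; the summed signal was 1056 with phenylephrine and 689 with PAMH. Macrophage markers numbered 3 above the floor of 18, with Cd68, Cd14, Ptprc and Lyz2 below it on all arrays, and summed to 949.6 and 1077. Schwann cell and neuronal markers had 2 of 18 above the floor and sums of 1371 and 1353. Of 6 erythroid markers, 1 was above the floor on all arrays, Hbb was on none, and the sums were 372 and 268. That marker, Slc4a1, had 155 and 184, opposite in direction to the erythroid sum. The sums of these lists include genes below the floor, so they are weak readings of the cell types. The measured members of these lists ranged from -0.57 for the endothelial adhesion gene Icam2 to 0.47 for the macrophage receptor Csf1r on the log2 scale, both close to the floor.

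**Figure D3:**
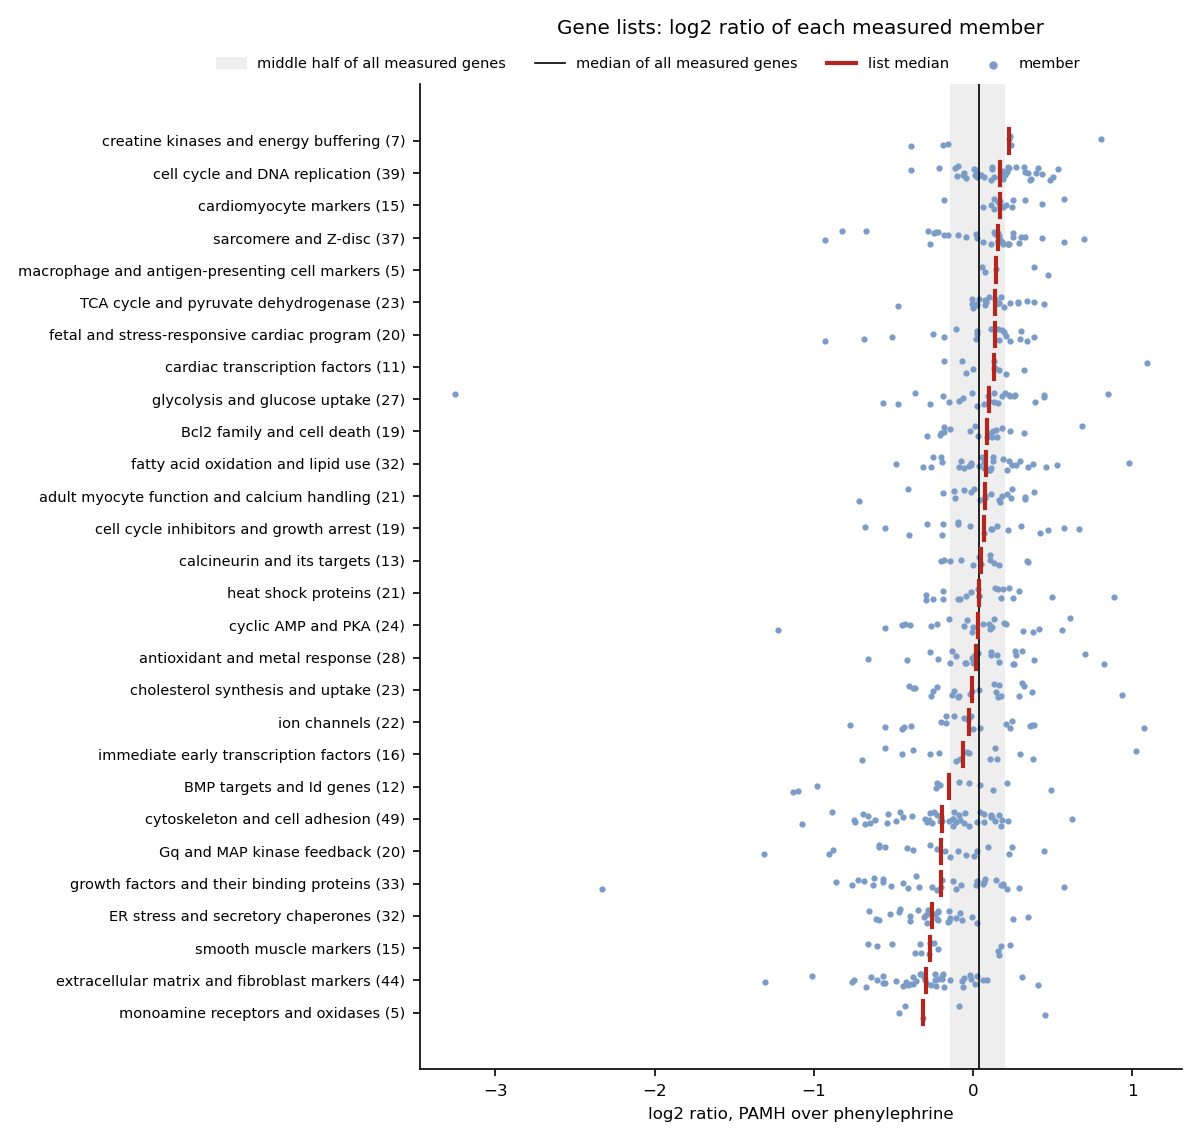
Log2 ratio of PAMH over phenylephrine for each measured member (points, jittered vertically) of every list with at least 5 measured genes, the number of which stands in parentheses, with the list median in red. The grey band spans the interquartile range of all measured genes, from -0.14 to 0.20, and the black line their median of 0.04. Left of the band lie the medians of the receptor (-0.32, 5 genes), matrix (-0.30), smooth muscle (-0.27), ER chaperone (-0.26), growth factor (-0.20), Gq feedback (-0.20), cytoskeleton (-0.19) and Id and BMP (-0.15) lists. Right of it lies that of the creatine kinase and energy buffering list (0.23, 7 genes). The medians of the receptor, growth factor and creatine kinase lists reached 0.00 under an alternative.

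Cytoskeleton and adhesion genes differed mostly in 1 direction. Of 49 measured, 9 were at least 1.5-fold lower (18.4%, against 2.67% of all measured genes) and 1 higher (against 1.93% of all), with a median of -0.19. Krt18, a keratin of simple epithelia, had 85.8 unstimulated, 398 with phenylephrine and 215 with PAMH (1.85-fold lower). Nes, the intermediate filament nestin, had 201, 323 and 193 (1.67-fold lower). Krt18 was above unstimulated with either compound, whereas Nes with PAMH was at the unstimulated level. Anxa3, a calcium-dependent membrane-binding protein, had 328, 353 and 209.7 (1.68-fold lower).

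Cdh13, the cadherin without a transmembrane region, was the lowest of the list by its brightest probe set, with 394, 399.7 and 189.5 (2.11-fold lower). Its other probe sets gave log2 ratios of -0.40 and -0.10, and the mean of all was -0.52, so the 2-fold difference did not hold. The remaining lower members were Tubb2a (-0.69), Anxa1 (-0.68), S100a10 (-0.66), the hyaluronan receptor Cd44 (-0.65) and the integrin subunit Itga1 (-0.61), as log2 ratios. Brighter members than these differed by less than 1.5-fold but not uniformly. The calcium-binding protein S100a6 had 3726 and 2574 (log2 ratio -0.53), the actin cross-linker Actn1 2416 and 1731 (-0.48), and moesin, Msn, 3077 and 2243 (-0.46). The intermediate filament gene of vimentin, Vim (4101 and 3881, -0.08), and the cytoplasmic γ-actin Actg1 (5147 and 5062, -0.02) were nearly equal. S100a13, a calcium-binding protein, was the higher member, with 517 unstimulated, 181 with phenylephrine and 278 with PAMH (1.54-fold).

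Most genes of the secretory machinery had slightly lower signals with PAMH. Of 32 measured ER stress genes and secretory chaperones, 29 lay below 0 on the log2 scale, against 43.3% of all measured genes, and the median was -0.26, between -0.29 and -0.22 under the alternatives. At least 1.5-fold lower were 3 (9.38%, against 2.67% of all measured genes) and higher none. Sel1l, of ER-associated degradation, had 267 unstimulated, 299 with phenylephrine and 190.0 with PAMH (1.57-fold lower). The co-chaperone Dnajc3 had 352, 455 and 298 (1.53-fold lower), and Dnajb9 584, 458 and 304 (1.51-fold lower). With PAMH all 3 were below unstimulated, while with phenylephrine Dnajb9 alone of them was.

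Among the brightest members the differences were under 1.5-fold. The log2 ratio was -0.15 for Hspa5, the chaperone BiP (3405 and 3073), -0.11 for Hsp90b1 and -0.34 for the disulfide isomerase P4hb. The stress transcription factor Ddit3 (0.25) and the ubiquitin ligase Syvn1 (0.34) went the other way, under 1.5-fold. Markers of matrix-producing cells, whose summed signal was also lower with PAMH as given above, moved in the same direction as this list. The part of the one in the other was not tested.

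**Figure D4:**
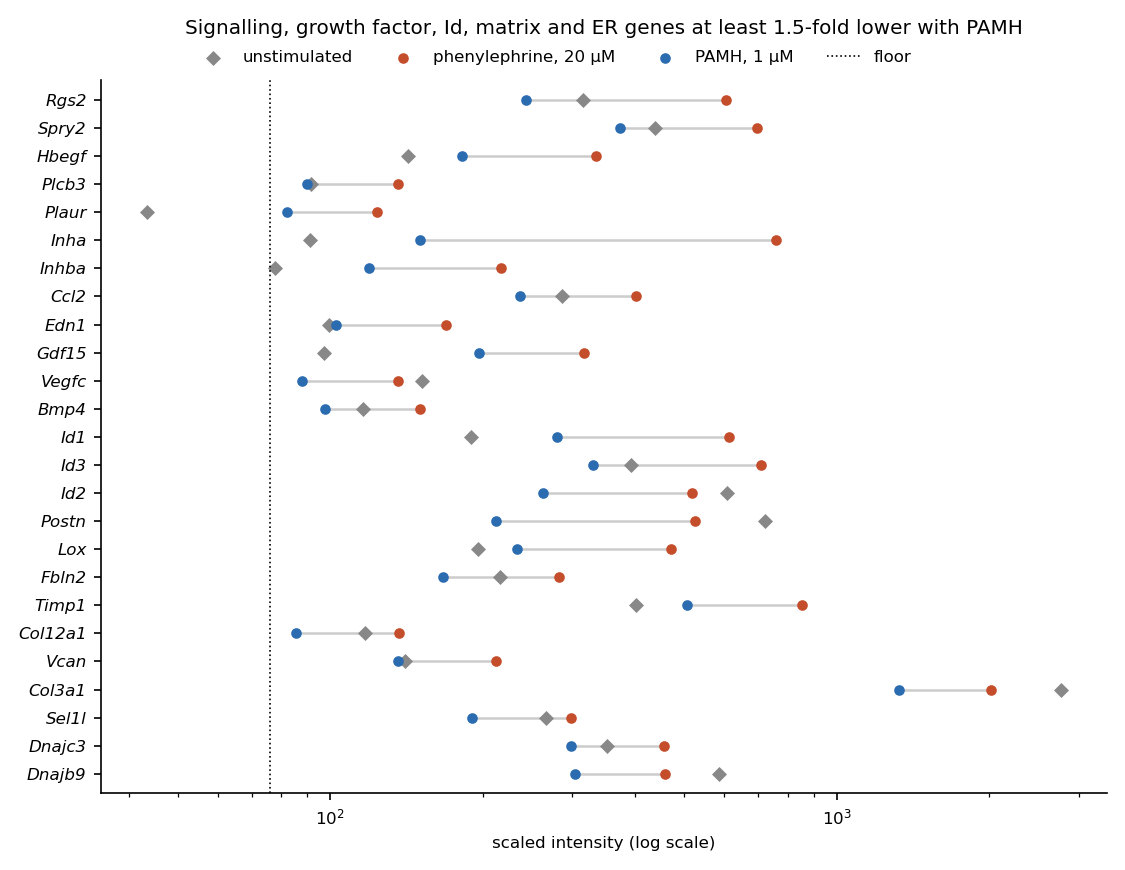
Scaled intensity, on a log scale, on the 3 arrays for members of the signalling feedback, growth factor, Id and BMP, matrix and ER chaperone lists that were at least 1.5-fold lower with PAMH than with phenylephrine, 1 array per condition. The unstimulated signal (diamond) lies below both treated ones for Id1 and Lox, between them for Rgs2 and Id3, and above both for Postn, Id2 and Col3a1.

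No measured gene of the cell cycle and DNA replication list differed by 1.5-fold. Of 39, 31 had a log2 ratio above 0 and 8 below it, against 43.3% below 0 of all measured genes. The median, inside the interquartile range of all genes, was 0.17 (between 0.12 and 0.19 under the alternatives). The highest were Mcm3 of the replicative helicase at 201 and 291 (log2 ratio 0.53), the DNA ligase Lig1 at 213 and 302 (0.51) and the polymerase clamp Pcna at 1335 and 1864 (0.48). Other replication genes were near 0, such as Fen1 (-0.05) and Mcm2 (0.05). Mitotic genes were likewise spread, from 0.41 for Racgap1, which acts in cytokinesis, and 0.36 for the topoisomerase Top2a to 0.01 for the kinase Plk1 and -0.09 for the kinesin Kif2c. Ccnd1, the cyclin of growth factor response, was the lowest member, with 452 unstimulated, 801 with phenylephrine and 612 with PAMH (-0.39), and its other probe sets gave -0.33 and -0.67.

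Among growth arrest genes, Cdkn1c, a cyclin-dependent kinase inhibitor, was 1.60-fold lower (239.8 unstimulated, 136 with phenylephrine, 85.0 with PAMH), and Pik3ip1, which restrains phosphoinositide 3-kinase signalling, 1.59-fold higher (575, 208 and 329.9). Both were below unstimulated on each treated array. Of 19 cell death genes, Bcl2l11, the gene of the death-promoting protein Bim, was the 1 past 1.5-fold, with 537, 83.5 and 134 (1.60-fold higher with PAMH). It was far below unstimulated with either compound, and its other probe sets were below the floor.

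Few metabolic genes passed 1.5-fold. Of 27 measured glycolysis and glucose uptake genes, Eno3 was lower and Aldoc, the brain-type aldolase, higher by at least 1.5-fold, and the median was 0.10 while the mean, which Eno3 enters, was -0.05. Aldoc had 556 unstimulated, 88.9 with phenylephrine and 159.8 with PAMH (1.80-fold higher). Its treated signals were both far below the unstimulated one. The ubiquitous isoforms were nearly equal: Eno1 had 5351 and 5039 (log2 ratio -0.09), and Aldoa 6519.6 and 7638 (0.23). The lactate exporter Slc16a3 had 1114 and 754 (-0.56), just under 1.5-fold lower.

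Of 32 fatty acid genes G0s2 was the 1 past 1.5-fold, and the median was 0.08. The coactivator Ppargc1a (0.53) and the fatty acid binding protein Fabp3 (0.46) were next highest. None of 23 genes of the TCA cycle and pyruvate dehydrogenase passed 1.5-fold. Above 0 were 20 and below it 3, against 43.3% below 0 of all measured genes. The list's median was 0.14, with the pyruvate dehydrogenase kinases Pdk2 (0.45) and Pdk4 (-0.47) at opposite ends. Among 23 cholesterol genes the median was -0.01 and the mean 0.03. The sterol reductase Tm7sf2 was higher, with 158 unstimulated, 231 with phenylephrine and 441 with PAMH (1.91-fold), and Idi1 of isoprenoid synthesis was lowest (-0.40, and -0.21 by a second probe set).

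Of 7 measured genes of creatine kinases and energy buffering, the creatine transporter Slc6a8 was higher, with 471 unstimulated, 270.3 with phenylephrine and 473 with PAMH (1.75-fold). By its second probe set the log2 ratio was 0.33, under 1.5-fold. The brain-type creatine kinase Ckb had 699.9 and 534 (-0.39), under 1.5-fold lower. Among 21 heat shock protein genes Dnajb5 was 1.85-fold higher (161 and 298) and the small heat shock protein Hspb6 had 0.50, with a list median of 0.03.

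Of 28 antioxidant and metal response genes, 2 were higher (7.14%, against 1.93% of all measured genes) and 1 lower (3.57%, against 2.67%) by 1.5-fold. Gclc, the catalytic subunit of glutathione synthesis, had 240.1 and 425 (1.77-fold higher), but a second probe set gave a log2 ratio of 0.22. The metallothionein Mt2A had 700.3 unstimulated, 497 with phenylephrine and 808 with PAMH (1.63-fold higher). The glutathione transferase Gsta1 had 402, 253 and 159.9 (1.58-fold lower). Gsta1 belongs to a family of near-identical genes, so its probe set may also read relatives.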

How the data were processed

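Total RNA of rat ventricular myocyte cultures had been hybridised to 1 Affymetrix array per condition, of which the authors deposited 1 signal intensity per probe set in 1 table. The software behind these intensities is not given in the sources used here; their mean without the top and bottom 2% was 250.1 on each array. The deposited medians were 118 for unstimulated, 108 for phenylephrine and 106 for PAMH, and each array was scaled to a common median. With no counts, depth does not apply, and having 1 array per condition limits the precision. Of 15866 probe sets, 12783 carried 1 gene symbol in GEO's platform annotation, 312 several and 2771 none, and 12748 of the first were updated through RefSeq's table. Promoters are RefSeq's for GRCr8 and were found for 5252 of the 6593 measured genes.

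Genes were named in the text by these rules: the 15 highest and 15 lowest ratios with a mean signal above percentile 60, members of lists past 1.5-fold, receptors and known hypertrophy markers; other genes past 2-fold and further list members were named after their values were seen. The gene lists and their members were chosen with earlier results of these data known. No p-values were computed. The alternatives were 4 other scalings, 2 other floors, no filter, an offset of 50 and 3 ways of treating probe sets. Python 3.11.15, pandas 2.3.3, numpy 2.4.6, matplotlib 3.10.9 and limma 3.58.1 in R 4.3.3 (for normalization only) were used, and the ratio code was tested on simulated data.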

Additional observations from a re-analysis of the deposited data

How the results depend on the processing

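The counts of genes at least 2-fold apart moved with the treatment of dim genes. With the floor at percentile 25 there were 29 higher and 66 lower genes, and with the floor at percentile 60, where fewer genes were compared, 3 and 11. With an offset of 50 and no filter there were 17 higher and 38 lower. Scaling, quantile and cyclic loess normalization, no filter with values set to the floor, and the ways of treating probe sets left the counts within 1.5 times those reported, between 10 and 14 higher and between 18 and 33 lower. After quantile normalization the medians of the fetal program and sarcomere lists became -0.013 and -0.026. The medians of the adult myocyte, heat shock, cyclic AMP, antioxidant and cholesterol lists also crossed 0 under at least 1 alternative. Under at least 1 alternative the sign of the log2 ratio also turned for Nppb, Csrp3, Atp2a2 and Htr2a among the genes recomputed. No paired analysis was possible because each condition had 1 array. Without replicates, no ratio can be set against the variation between cultures, and signals near the floor carry the least certain ratios.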

Other observations

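Among 1370 measured probe sets with several gene symbols or none, 1 was at least 2-fold higher with PAMH than with phenylephrine and 6 were lower. The higher one had 355 unstimulated, 138 with phenylephrine and 373 with PAMH (2.70-fold). The lowest had 131, 273 and 92.7 (2.95-fold lower). In both, the PAMH signal lay within 1.5-fold of the unstimulated one.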
